A study of Mus musculus with 17 samples.

Results

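The genes described here are the ligands, the receptor and the regulators of epidermal growth factor (EGF) receptor signalling: the ligands Hbegf, Areg, Ereg, Tgfa and Btc, the receptor Egfr, its feedback inhibitor Errfi1 and the sheddase Adam17. They were chosen by name. Each symbol was taken at its entry with the highest mean raw count, which gave 8 genes of the 12736 symbols in the count tables, and all 8 were among the 11123 entries tested. Areg and Ereg entered the test only through the 6 h grafts, where they were high. Counts over these genes are therefore descriptions.

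RNA of mouse vein grafts was sequenced after the inferior vena cava of a donor mouse had been placed into the carotid artery of a recipient over plastic cuffs. The groups were 4 control vena cavae, 4 grafts perfused for 1 h and 5 grafts perfused for 6 h, all from male C57BL/6J mice of 10 to 12 weeks. The anastomosis zones of the grafts were cut away before sequencing. Grafts at 24 h were not analysed here, since 5 columns carried that name for 4 samples.

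In this system the ligands are made as proteins anchored in the cell membrane. ADAM17 and related proteases cut them loose, and the freed ligand binds the EGF receptor on the same or a neighbouring cell, which switches on the RAS, RAF and ERK cascade. ERK signalling raises immediate early genes and also the genes of its own brakes. The protein made by Errfi1, MIG6, binds the active kinase of the receptor and shuts it down. HB-EGF, the product of Hbegf, is known as a mitogen of vascular smooth muscle cells, whereas amphiregulin and epiregulin (Areg and Ereg) are best known from epithelia and from inflamed tissue. Sequencing of whole tissue cannot tell apart fewer cells of a type and less RNA per cell.

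For 6 of the 8 genes RefSeq promoter windows were given, 7 windows in all on GRCm38.p6, each with 250 bases before and 50 bases from the start of transcription. Among 5 motifs searched on both strands, the palindrome of the cAMP response element, TGACGTCA, was present in the window of Areg and in that of 1 start of Errfi1. Both windows are shown because they hold this palindrome, and the change of the gene played no part in the choice. The motif is in capitals, and the sequences run 5′ to 3′ on the plus strand.
Areg, chr5:91139349-91139648: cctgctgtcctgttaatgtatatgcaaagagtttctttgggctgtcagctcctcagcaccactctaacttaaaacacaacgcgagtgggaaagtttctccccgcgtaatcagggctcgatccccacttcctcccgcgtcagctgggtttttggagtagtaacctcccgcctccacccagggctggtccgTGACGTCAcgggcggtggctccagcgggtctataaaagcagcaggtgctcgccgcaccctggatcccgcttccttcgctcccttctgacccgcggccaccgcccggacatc
Errfi1, chr4:150854820-150855119: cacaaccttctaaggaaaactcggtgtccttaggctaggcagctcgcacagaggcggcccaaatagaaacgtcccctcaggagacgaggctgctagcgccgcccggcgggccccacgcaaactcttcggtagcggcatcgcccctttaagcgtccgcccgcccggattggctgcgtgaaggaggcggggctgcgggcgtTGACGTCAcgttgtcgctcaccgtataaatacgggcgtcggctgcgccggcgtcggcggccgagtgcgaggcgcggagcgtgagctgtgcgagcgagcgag

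The motif began 61 bases before the start of Areg and 51 bases before that start of Errfi1. It occurred in 588 of 32817 mouse promoter windows of the same length (1.79%). The other motifs searched were an AP-1 site (TGANTCA, in 7.81% of all windows), an EGR1 site (GCGNGGGCG, 5.56%), the CArG box of serum response factor (1.63%) and an NF-kappaB site (4.5%). None of these letters stood in the windows of Areg, Tgfa, Btc, Egfr, Errfi1 or Adam17. A match is a description of the sequence and not a binding site.

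Depth was similar in all libraries. Total counts were 8569614 to 11029712 in control vena cavae, 7897624 to 8359934 in grafts at 1 h and 10171059 to 11816124 in grafts at 6 h. Levels are given as CPM, the share of a gene in the TMM-normalised counts of a library on edgeR's usual scale. In a multidimensional scaling plot graft 1 h replicate 2 and graft 6 h replicate 5 stood apart on the second axis (4.61 and 1.74, the other libraries -1.03 to 0.0512). Acta2 of smooth muscle (135 to 317 CPM in controls) and Vwf of endothelium (133 to 248 CPM in controls) were found in every library. So was Adipoq of fat cells (2610 to 3640 CPM in controls). The lowest level of Acta2 in any library was 69.1 CPM, in a 6 h graft. Other markers of the vessel wall were weak or missing. Pecam1 of endothelium never exceeded 6.07 CPM, and Tek of endothelium fell to 0 CPM within the 6 h group. Lmod1 of smooth muscle had a median of 0.126 CPM in that group. Myh11 and Smtn of smooth muscle were not among the counted genes. The titles of the samples hold a digit whose meaning is not stated, 7 in control and 6 h libraries and 8 in 1 h libraries. Whatever it marks cannot be told apart from time in a comparison with 1 h. Nothing in the labels says more of how replicates were obtained than that they are separate samples, and p-values measure the spread between these libraries.

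At 6 h, 4 of the 8 genes passed edgeR's quasi-likelihood test (adjusted p under 0.05) as higher in grafts than in controls: Hbegf, Areg, Ereg and Errfi1. Of all entries tested, 5.58% were higher and 1.59% lower in this comparison. None of the 8 genes was lower, also at an unadjusted p under 0.05 or by DESeq2. At 1 h, Hbegf and Errfi1 were higher, 2 of 8 against 1.12% of all entries, and none was lower against 0.00899% of all entries. From 1 h to 6 h Hbegf, Ereg and Errfi1 rose, 3 of 8 against 2.63% of all entries, and none fell against 1.02%. Comparisons with control share the same 4 control libraries. Tgfa, Btc, Egfr and Adam17 passed the test in no comparison.

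**Figure D1:**
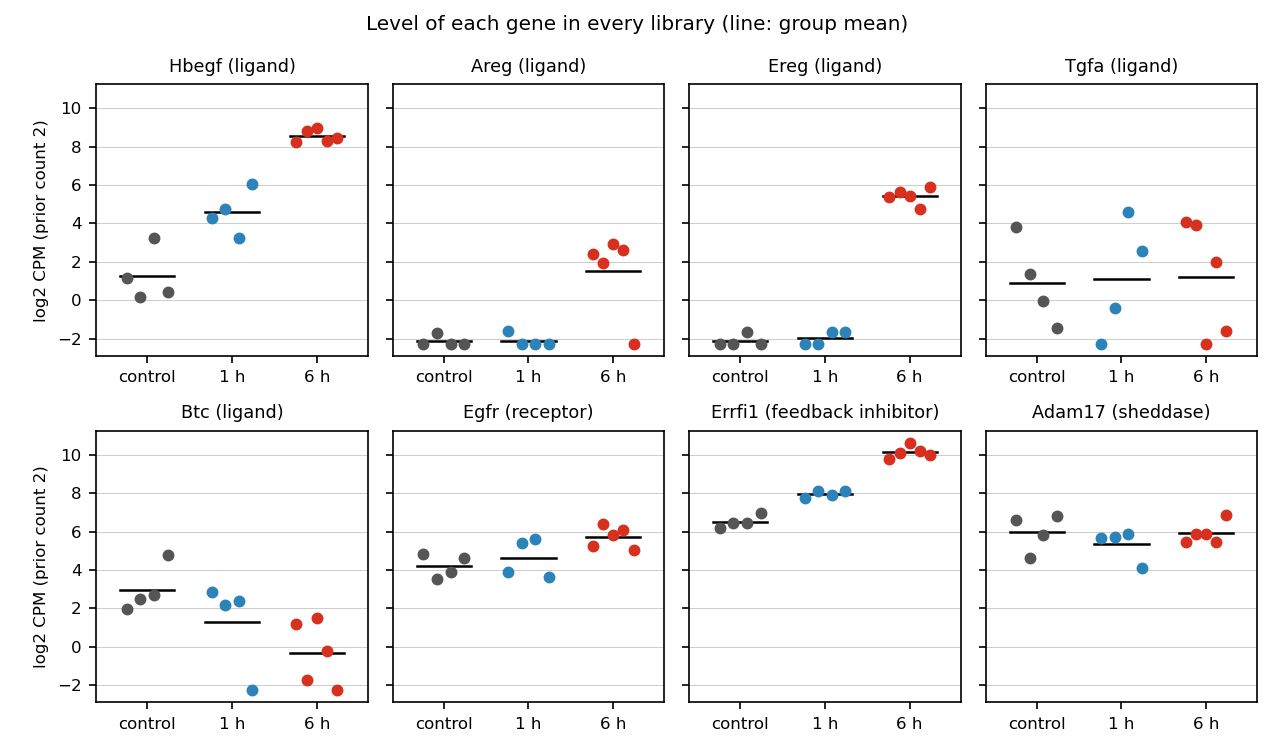
Level of each of the 8 genes in every library, as log2 CPM with a prior count of 2, in control vena cava, grafts at 1 h and grafts at 6 h. Points are libraries and lines are group means. The group means of Hbegf and Errfi1 stand higher at each time, though for Hbegf graft 1 h replicate 3 lies just below control replicate 3. Ereg appears at 6 h in all 5 libraries, Areg in 4 of 5, and Tgfa is spread over the same range in every group.

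Hbegf was the ligand with the highest level per length of transcript at 6 h. Control vena cavae had 2.02, 0.936, 9.33 and 1.1 CPM (replicates 1 to 4). Grafts at 1 h had 18.9, 26.4, 9.16 and 67.3 CPM, and grafts at 6 h had 301, 456, 499, 319 and 347 CPM. The 6 h libraries were far above all others, while at 1 h replicate 3 was just below the highest control, replicate 3. Group means were 3.36 ± 4.01, 30.4 ± 25.6 and 384 ± 87.6 CPM at control, 1 h and 6 h (SD, n = 4, 4 and 5). The highest 6 h library was 1.65 times the lowest, against 9.96 times in controls.

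The log2 fold change of Hbegf was 6.85 ± 0.82 (SE) at 6 h against control (edgeR adjusted p = 4.99e-05) and 3.66 ± 0.69 at 6 h against 1 h (adjusted p = 0.00676). At 1 h against control it was 3.19 ± 0.70 (adjusted p = 0.0378). This early call was lost on leaving out single libraries, though the log2 fold change was 2.50 at the lowest. It was 3.03, 2.93 and 2.94 without control vena cava replicate 1, 2 and 4 (adjusted p = 0.139, 0.0947 and 0.102), and 3.25 and 2.50 without graft 1 h replicate 2 and 4 (adjusted p = 0.0595 and 0.107). With only the libraries of both groups in the fit it was 3.18 (adjusted p = 0.43), and without the pair of libraries that stood apart 3.26 (adjusted p = 0.0928), whereas DESeq2 gave an adjusted p of 0.000173. Without control replicate 3, the highest control, the log2 fold change was 4.47 at 1 h and 8.13 at 6 h. Without graft 1 h replicate 4, the change between 1 h and 6 h was 4.36. All alternatives kept the call at 6 h.

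Ereg was all but absent before 6 h. A single count was found over the 4 control libraries and 2 counts over the 4 grafts at 1 h. Grafts at 6 h had 411, 526, 344, 251 and 472 counts, or 41.0, 49.4, 42.8, 26.6 and 59.5 CPM (mean 43.8 ± 12.1, SD, n = 5). Every 6 h library was thus above every other library. The ratio of depth-scaled counts was 1920 for 6 h against control (95% counting interval 343 to 75700) and 754 for 6 h against 1 h (208 to 6230). These intervals cover counting error of the summed counts only and leave out the spread between libraries. Copies made by PCR were not marked, so counting error itself may be understated.

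In the fit, the log2 fold change of Ereg at 6 h was 10.21 ± 1.31 against control (edgeR adjusted p = 0.000105) and 9.31 ± 1.26 against 1 h (adjusted p = 0.000531), values that depend on how a count of 0 is treated. By fitted rise it was 18th of 11123 entries at 6 h against control and 9th at 6 h against 1 h. These ranks also depend on the treatment of 0. They are descriptions only, since Ereg entered the test through the 6 h grafts alone. Without control replicate 3, which held the 1 control count, the fitted value was 11.72. No fold is given at 1 h, where both groups had 3 counts or fewer. All alternatives kept both calls.

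Areg, the neighbour of Ereg, appeared at the same time, at 0 to 6.12 CPM per kb of transcript against 6.43 to 14.4 for Ereg. It had 1 count over the control libraries and 1 over the grafts at 1 h, and 51, 38, 59, 57 and 0 counts in grafts at 6 h, or 5.09, 3.57, 7.34, 6.04 and 0 CPM. Thus 4 of 5 libraries were above all others, and replicate 5 held no Areg count although its Ereg was the highest of all at 59.5 CPM. Replicate 5 was also the 6 h library that stood apart and the one with the most neutrophil marker RNA, with 58200 summed CPM against 3160 to 11400 in the other 6 h grafts. Its monocyte and macrophage sum was the highest too. Its sums were the lowest for mesothelial and epithelial markers (104 CPM, the others 174 to 316) and smooth muscle markers (177 CPM, the others 278 to 1540). The same held for cardiac muscle and for basophil and mast cell markers. Platelet, endothelial, fibroblast, fat cell and lymphocyte sums lay within the range of the other 6 h grafts. The part of these in the missing Areg was not tested.

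The ratio for Areg was 196 at 6 h against control (95% counting interval 34.8 to 7780) and 154 at 6 h against 1 h (27.4 to 6120). These intervals too leave out the spread between libraries. The fitted log2 fold change against control was 6.93 ± 1.92 (edgeR adjusted p = 0.039), and that against 1 h was 6.72 ± 1.93 (adjusted p = 0.0734). The call against control was weak. It was at an adjusted p of 0.122, 0.0716, 0.119 and 0.107 without control replicates 1 to 4 and at 0.0548 with no filter on low counts. The fitted value was 8.40 without control replicate 2, which held the single count, and without any of graft 6 h replicates 1 to 4 Areg no longer passed the filter. Without graft 6 h replicate 5 Areg was higher in both comparisons (adjusted p = 0.0178 against control, 0.0362 against 1 h), and DESeq2 called it in both (0.0117 and 0.028).

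Ereg and Areg lie side by side on chromosome 5, on the plus strand at 91503643 to 91522675 and 91568641 to 91577458 of mm9 (GENCODE M1 annotation), 46.0 kb apart. Within 200 kb of the pair, a window chosen after the values were seen, 6 protein-coding genes are annotated, of which 5 were tested. Beside Ereg and Areg, around which the window was set, Cxcl1 and Cxcl2 were higher at 6 h, in a comparison with 5.58% of all entries higher. Cxcl1 and Cxcl2, chemokines that attract neutrophils, had log2 fold changes of 10.29 (edgeR adjusted p = 6.6e-08) and 11.07 (adjusted p = 1e-09) at 6 h. Unlike Ereg and Areg both were already higher at 1 h, by 6.83 (adjusted p = 3.37e-06) and 6.71 (adjusted p = 1.12e-07). Mthfd2l, an enzyme of mitochondrial folate metabolism that lies between the chemokines and the ligands, stood at 0.16 on the log2 scale at 6 h (adjusted p = 0.977). Btc is on the minus strand 208.8 kb beyond Areg, outside this window.

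Btc, which encodes betacellulin, was the only ligand with a lower mean in grafts. Control vena cavae had 3.67, 5.34, 6.22 and 27.4 CPM, grafts at 1 h 7.12, 4.29, 5.02 and 0 CPM, and grafts at 6 h 2.09, 0.0938, 2.61, 0.636 and 0 CPM. Every 6 h graft was below every control, as were 5.32% of all entries tested. At 1 h the groups overlapped apart from replicate 4 at 0. The log2 fold change was -3.28 ± 1.56 at 6 h against control (edgeR adjusted p = 0.258) and -1.38 ± 1.59 at 1 h (adjusted p = 0.999), so that neither passed the test. Without control replicate 4, the highest control, they were -2.20 and -0.27. At 6 h only 49 counts of Btc were found over 5 libraries.

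Tgfa, the gene of transforming growth factor alpha, varied more within groups than between them. It was at 13.6, 2.34, 0.75 and 0.152 CPM in control vena cavae, at 0, 0.536, 23.8 and 5.60 CPM in grafts at 1 h, and at 16.5, 14.9, 0, 3.71 and 0.126 CPM in grafts at 6 h. Among controls alone, the highest library was 89.3 times the lowest, and the groups overlapped fully. The log2 fold change was 0.83 ± 1.91 at 1 h and 0.74 ± 1.83 at 6 h against control (edgeR adjusted p = 0.999 and 0.882). With errors of this size a change of several-fold was not detectable for Tgfa. The sign at 1 h turned to -1.04 without graft 1 h replicate 3.

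**Figure D2:**
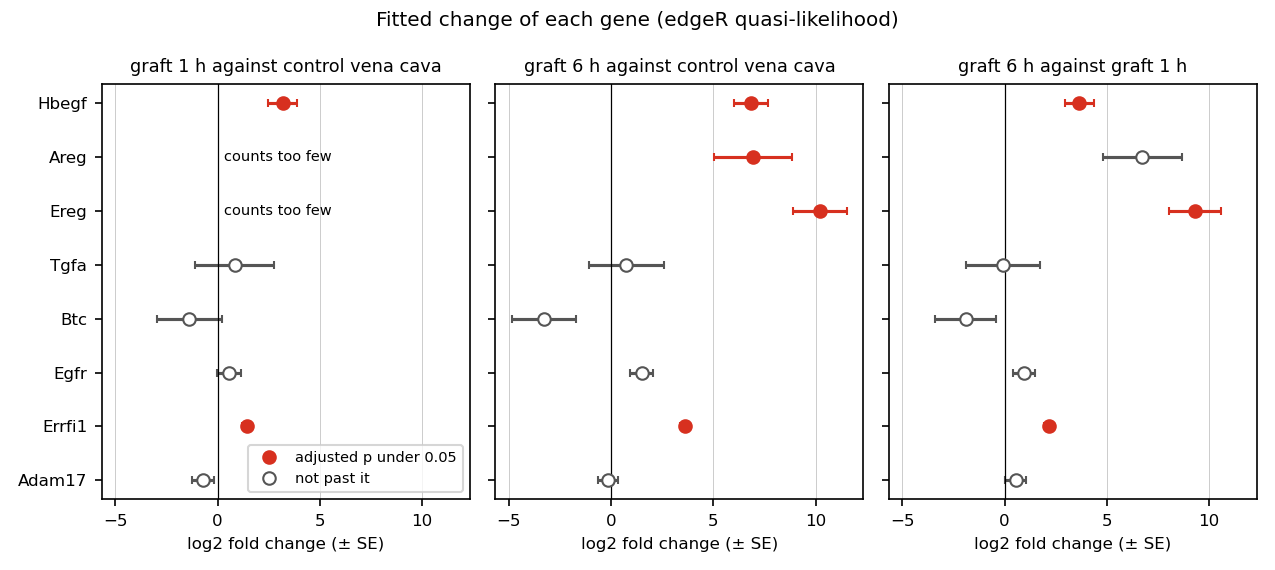
Fitted log2 fold change of the 8 genes with its standard error in 3 comparisons. Filled points passed an adjusted p of 0.05. Hbegf and Errfi1 passed in all 3 panels, Ereg at 6 h against control and against 1 h and Areg at 6 h against control only, with no point for Areg and Ereg at 1 h against control, where counts were too few.

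The make-up of the ligand RNA changed with time. To compare genes, CPM were divided by the length of the longest coding transcript of GENCODE M1. Control vena cavae held 3.0 to 10.3 CPM per kb of the 5 ligands together, 1 h grafts 10.6 to 29.9 and 6 h grafts 146 to 228. In controls no single ligand led: Btc had the largest share in 2 libraries, Tgfa in 1 and Hbegf in 1. At 1 h Hbegf led in 3 of 4 libraries and Tgfa in replicate 3, with 52.7% of the sum.

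At 6 h Hbegf made up 86.8% to 92.3% of the ligand sum in all 5 libraries. Its median share was 13.9% in controls, 81.0% at 1 h and 91.0% at 6 h. Ereg came next at 6 h with 4.37% to 8.96%, while Areg (0% to 3.42%) and Tgfa (0% to 2.99%) overlapped, Tgfa being the larger in 3 of the 5 grafts. Btc, at a median of 49.2% in controls, was at 0.512% or less in every 6 h graft. These shares are of RNA and say nothing of the protein that was shed.

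**Figure D3:**
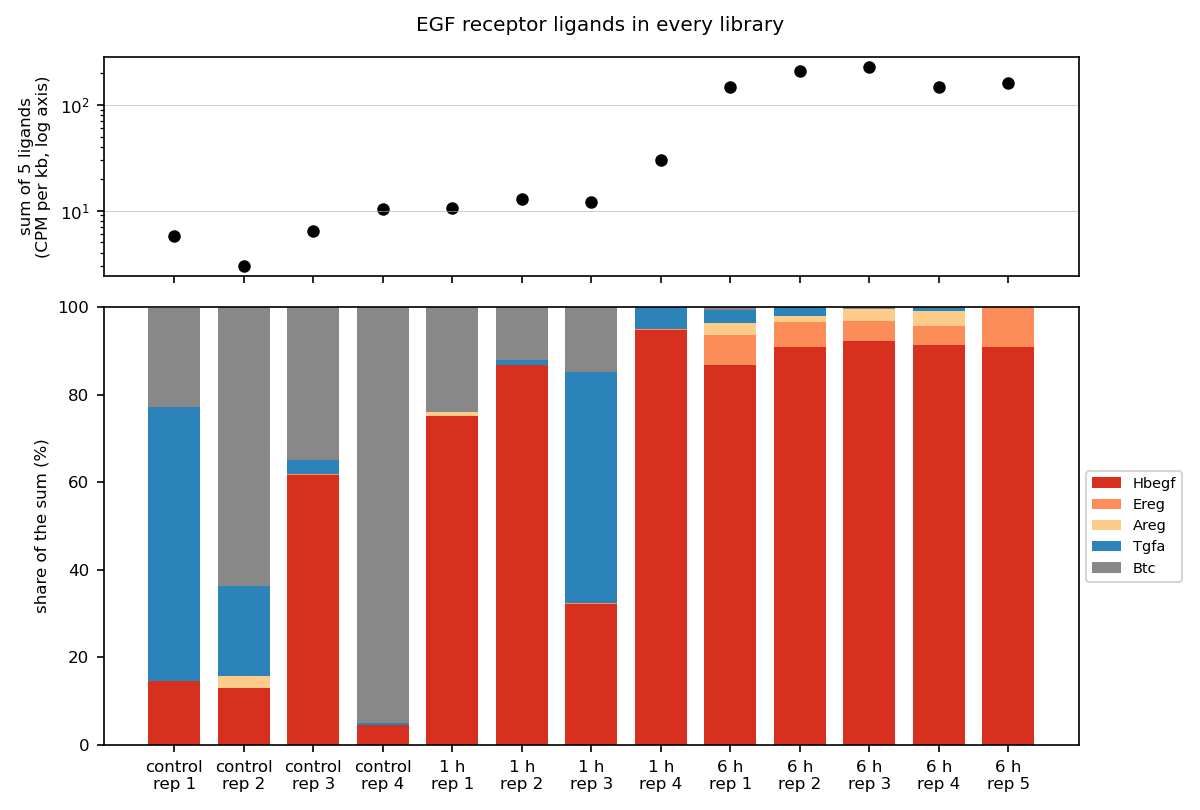
Upper panel, sum of the 5 EGF receptor ligands in each library in CPM per kb of transcript on a log axis; lower panel, share of each ligand in that sum in percent. Bars are single libraries. The sum lies at 146 to 228 in the 6 h grafts, of which Hbegf takes 86.8% to 92.3%, whereas controls are mixed.

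Egfr, the receptor, had 28.3, 11.3, 14.5 and 24.6 CPM in control vena cavae, 14.7, 41.5, 48.0 and 12.1 CPM in grafts at 1 h, and 37.2, 85.6, 56.9, 66.7 and 32.9 CPM in grafts at 6 h. Each 6 h graft was above each control, as was so for 9.23% of all entries tested. At 1 h grafts overlapped with both other groups. The log2 fold change at 6 h against control was 1.5 ± 0.56 (edgeR adjusted p = 0.128), that at 1 h against control 0.56 ± 0.57 (adjusted p = 0.999) and that at 6 h against 1 h 0.94 ± 0.55 (adjusted p = 0.458). DESeq2 put Egfr past the threshold at 6 h against control (1.45, adjusted p = 0.041). Egfr has a second entry in the tables, with 260, 51 and 215 counts over the control, 1 h and 6 h libraries, and how reads shared by both entries were assigned is a limit of these values. The second entry alone stood at -0.3 ± 1.6 on the log2 scale at 6 h against control (edgeR adjusted p = 0.949), with overlapping groups. With both entries summed the log2 fold change at 6 h against control was 1.24 (adjusted p = 0.183).

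Errfi1, the feedback inhibitor, had the smallest standard error of the 8 genes in each comparison. It was at 73.7, 87.1, 87.4 and 125 CPM in control vena cavae, at 214, 283, 239 and 273 CPM in grafts at 1 h, and at 873, 1090, 1560, 1190 and 1020 CPM in grafts at 6 h. The 3 groups did not overlap. Within a group the highest library was 1.70, 1.32 and 1.78 times the lowest at control, 1 h and 6 h. Group means were 93.4 ± 22.2, 252 ± 31.7 and 1150 ± 257 CPM (SD, n = 4, 4 and 5).

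Errfi1 was 2.70 times its control level at 1 h (log2 fold change 1.43 ± 0.23, edgeR adjusted p = 0.00243) and 12.3 times at 6 h (3.62 ± 0.24, adjusted p = 1.37e-07). Between 1 h and 6 h it rose by a further 2.18 ± 0.23 on the log2 scale (adjusted p = 7.31e-05), so that the change at 6 h was larger than that at 1 h. By p-value it was the 12th entry of 11123 at 6 h against control and the 9th at 6 h against 1 h. No library left out ended any of these calls, but a test against a log2 fold change of at least 1 was not passed at 1 h (adjusted p = 0.532). Errfi1 lies on chromosome 4 of mm9 at 150228028 to 150243001, plus strand.

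Adam17, the protease that sheds most of these ligands, was at 96.9, 24.2, 56.1 and 112 CPM in control vena cavae, at 50.2, 53.3, 57.4 and 16.7 CPM in grafts at 1 h, and at 43.7, 58.0, 58.4, 44.2 and 118 CPM in grafts at 6 h. The groups overlapped throughout. The log2 fold change was -0.71 ± 0.52 at 1 h and -0.17 ± 0.49 at 6 h against control (edgeR adjusted p = 0.949 and 0.903), and without control replicate 4 the value at 6 h was 0.13. As levels per kb, Adam17 was next to Errfi1 in controls (medians 17.1 and 28.7 CPM per kb) and at 6 h (13.0) was below both Hbegf (146) and Errfi1 (359).

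Libraries of 1 group did not overlap with those of the other for several of these genes. At 1 h against control only Errfi1 was higher in every graft, as were 3.55% of all entries. At 6 h against control Hbegf, Ereg, Egfr and Errfi1 were, 4 of 8 against 9.23% of all entries. At 6 h against 1 h Hbegf, Ereg and Errfi1 were, 3 of 8 against 6.49%. In the order of levels per kb at 6 h, Errfi1 (287 to 512 CPM per kb), Hbegf (127 to 210) and Adam17 (9.77 to 26.3) were clear of each other, whereas Adam17, Ereg (6.43 to 14.4), Egfr (3.22 to 8.38), Areg (0 to 6.12), Tgfa (0 to 4.37) and Btc (0 to 0.935) each overlapped with the next. At 1 h Errfi1 (70.3 to 92.9) was clear of all others. In controls, ordered as Errfi1, Adam17, Btc, Egfr, Hbegf, Tgfa, Areg and Ereg, each gene overlapped with the next.

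The genes around the receptor were described by lists written from general knowledge. Of the other ligands of the EGF family, Nrg1 and Nrg4 were tested. Nrg4, a neuregulin made by fat cells, was lower at 6 h than in control (11 to 82.6 against 94.7 to 230 CPM, log2 fold change -2.15 ± 0.50, edgeR adjusted p = 0.0141). Nrg1 had 2.16 to 45.3 CPM in grafts at 6 h and 0 to 4.04 CPM in controls (3.60 ± 1.91, adjusted p = 0.324). Neither passed at 1 h by edgeR, by DESeq2 or at an unadjusted p under 0.05. Erbb2, the co-receptor that binds no ligand itself, was at -0.26 ± 1.32 at 6 h (adjusted p = 0.947).

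Of 8 tested genes of ligand shedding, 1 was higher at 6 h, against 5.58% of all entries. This was Adam8, a protease of leukocytes, with 168 to 719 CPM in grafts at 6 h and 0.375 to 33.7 CPM in controls (log2 fold change 4.34 ± 0.84, edgeR adjusted p = 0.00373). Adam10, the other main sheddase of EGF ligands, was at 0.10 ± 0.27 (adjusted p = 0.897) and Timp3, the inhibitor of ADAM17, at -0.19 ± 0.28 (adjusted p = 0.787). Rhbdf1, which helps to bring ADAM17 to the cell surface, was at 1.12 ± 0.88 (adjusted p = 0.549). The list's median was 0.51 at 1 h and 0.90 at 6 h, against -0.04 and -0.05 over all entries, and no gene of it passed at 1 h by edgeR, by DESeq2 or at an unadjusted p under 0.05.

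Of 18 tested genes of feedback and receptor turnover, 2 were higher at 1 h, against 1.12% of all entries, and 6 at 6 h, against 5.58%. None was lower by edgeR, by DESeq2 or at an unadjusted p under 0.05. The list's median log2 fold change was 0.85 at 1 h and 1.59 at 6 h, against -0.04 and -0.05 over all entries. Dusp1, a phosphatase that inactivates MAP kinases, was higher at 1 h (3.39 ± 0.48, edgeR adjusted p = 0.000829) and at 6 h (4.31 ± 0.49, adjusted p = 3.44e-05). Socs3, an inhibitor of cytokine receptors, was at 5.17 ± 0.72 at 1 h (adjusted p = 0.00074) and 4.91 ± 0.70 at 6 h (adjusted p = 0.000279).

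Of the Sprouty genes, inhibitors of RAS and ERK signalling below receptor tyrosine kinases, Spry2 and Spry4 passed the test at 6 h. Spry2 was at 1030 to 1860 CPM in grafts at 6 h against 64.6 to 318 CPM in controls (3.18 ± 0.42, edgeR adjusted p = 0.000131), and at 1.29 ± 0.40 at 1 h (adjusted p = 0.231). Spry4 was at 2.35 ± 0.36 at 6 h (adjusted p = 0.000507) and 0.39 ± 0.35 at 1 h (adjusted p = 0.999). Like Errfi1 both rose between 1 h and 6 h (1.88, adjusted p = 0.0134, and 1.95, adjusted p = 0.00457). Spry1, named after its value was seen, passed in no comparison (1.85 ± 0.62 at 6 h, adjusted p = 0.0876). The other genes higher at 6 h were Dusp5, a phosphatase of ERK, and Ptpn1, a tyrosine phosphatase, named after their values were seen. Dusp6, another phosphatase of ERK and likewise named afterwards, was at 0.54 ± 0.38 (adjusted p = 0.492).

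Of 16 tested adaptors and kinases of the ERK cascade, 1 was higher at 6 h, a share near the 5.58% of all entries. This was Sos2, an exchange factor of RAS (1.96 ± 0.49, edgeR adjusted p = 0.0211). Map2k1, a kinase that activates ERK, and Nras were at 1.31 ± 0.42 and 0.64 ± 0.23 (adjusted p = 0.075 and 0.105). The list's median was 0.10 at 1 h and 0.13 at 6 h, against -0.04 and -0.05 over all entries. At 1 h none of the 16 passed by edgeR or DESeq2. At an unadjusted p under 0.05, 1 did, against 887 of all 11123 entries in either direction.

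Of 15 tested immediate early genes, 11 were higher at 1 h and 14 at 6 h, against 1.12% and 5.58% of all entries, with list medians of 4.42 and 3.97 against -0.04 and -0.05. Jun and Atf3, transcription factors, had log2 fold changes of 5.19 ± 0.39 and 4.29 ± 0.28 at 1 h and 3.21 ± 0.34 and 3.23 ± 0.26 at 6 h against control, and both fell between 1 h and 6 h (-1.98, edgeR adjusted p = 0.00171, and -1.05, adjusted p = 0.0188). Ier3, a survival factor, and Ptgs2, the inducible cyclooxygenase, rose further over that time, as Hbegf and Errfi1 did (1.59, adjusted p = 0.000143, and 3.25, adjusted p = 0.00387). In all, 5 of the 15 were higher and 2 lower at 6 h than at 1 h. These genes answer to many signals besides the EGF receptor.

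**Figure D4:**
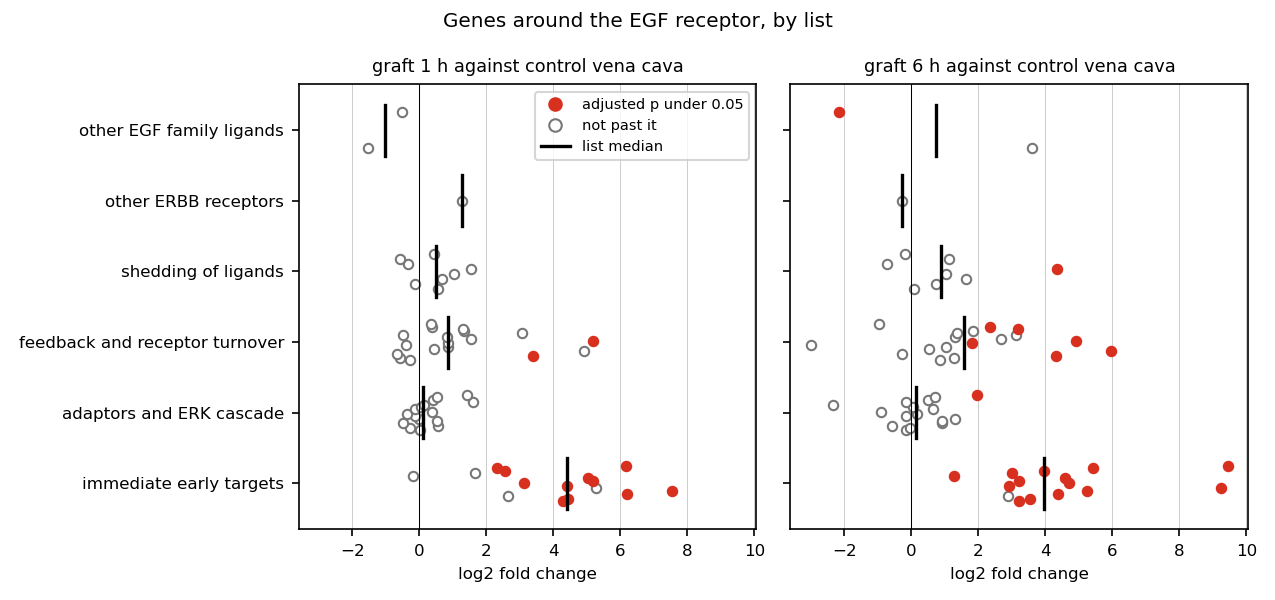
Log2 fold change of the tested genes of 6 lists around the EGF receptor at 1 h and at 6 h against control vena cava. Each point is a gene, filled where the adjusted p was under 0.05, and the black line is the list's median. Feedback genes lie at a median of 0.85 at 1 h and 1.59 at 6 h, adaptors at 0.10 and 0.13, and immediate early genes at 4.42 and 3.97.

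The genes whose pattern was most like that of each changed gene were found by the smallest root mean square difference of log2 CPM, centred on controls, over the 13 libraries. For Hbegf these included Mt2, a metallothionein (1.15), and Ccl7, a chemokine of monocytes (1.17). For Errfi1 they were Lox, the collagen cross-linking enzyme (0.41), Tuba1c, a tubulin (0.47), and Icam1, a leukocyte adhesion molecule (0.50). For Ereg they were the transcription factor Sox11 (0.73), Vdr, the vitamin D receptor (0.90), and Gm19510 (1.11). For Areg, with its low counts, they were 5830432E09Rik (0.89), Angpt4 (0.89) and 4931406H21Rik (0.94). These values are not to be ranked between genes, since each had its own set of candidates. The sets held 748 entries for Hbegf, 3998 for Errfi1, 676 for Ereg and 3944 for Areg. Ereg, like Areg, held 1 count or none in each control and 1 h library, which limits its likeness too.

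Markers of neutrophils and platelets were higher in grafts. Of all entries, 1.12% were higher at 1 h, 5.58% at 6 h and 2.63% at 6 h against 1 h. Of 6 tested neutrophil markers 5 were higher at 1 h and 5 at 6 h, and from 1 h to 6 h 1 rose. Csf3r was counted at an entry of a noncoding transcript, which was not tested. This entry was at 0 in all controls and had a median of 0 in grafts at 1 h and at 6 h. It says nothing of the coding transcript. Summed, control vena cavae held 29.1 to 74.4 CPM of these markers, 1 h grafts 1140 to 9970 and 6 h grafts 3160 to 58200. Of 6 platelet markers 2 were higher at 1 h and 5 at 6 h. From 1 h to 6 h none of the platelet markers rose by edgeR or DESeq2. At an unadjusted p under 0.05, 1 did, against 1739 of all 11123 entries in either direction. Their sum was 208 to 343 CPM in controls, 784 to 2620 in 1 h grafts and 1330 to 9620 in 6 h grafts. Of 8 monocyte and macrophage markers only Cd14 was higher, at both times. Their sum was 1950 to 3600 CPM in controls, 2090 to 3620 in 1 h grafts and 4580 to 13100 in 6 h grafts. At 6 h this sum was mostly Cd14 (2850 to 11500 CPM), while the list's median log2 fold change was -0.64. DESeq2 put 2 of the 8 lower at 6 h, against 572 of all 11123 entries. C1qa fell between 1 h and 6 h (edgeR adjusted p = 0.0437). The part of these 3 cell types in the rise of Hbegf, Ereg, Areg and Errfi1 was not tested.

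Markers of the wall and of other tissue were counted in the same way. Over all entries the shares higher against control were 1.12% at 1 h and 5.58% at 6 h. The shares lower were 0.00899% at 1 h, 1.59% at 6 h and 1.02% at 6 h against 1 h. Of 7 endothelial markers 1 was higher at 6 h, Cdh5, and of 6 fibroblast markers Col1a1 was higher at 1 h and Col3a1 lower at 6 h. Between 1 h and 6 h Acta2 and Tagln of smooth muscle and Col1a1, Col1a2 and Col3a1 of fibroblasts fell. Of 6 mesothelial and epithelial markers Upk3b was lower at 6 h, where Btc had its lowest mean (1.09 CPM). Krt8 and Krt18 of that list had log2 fold changes of 0.57 and 1.33 at 6 h (edgeR adjusted p = 0.856 and 0.668). The mesothelial and epithelial list summed to 525 to 694 CPM in controls, 138 to 735 CPM in 1 h grafts and 104 to 316 CPM in 6 h grafts. The lymphocyte list summed to 217 to 1520, 14.1 to 815 and 26.3 to 627 CPM. Among controls both lists were highest in replicate 4, as Btc was. Among 1 h grafts the lymphocyte list was lowest in replicate 1 (14.1 CPM), which had the most Btc (7.12 CPM). The part of either list in the level of Btc was not tested. None of 5 smooth muscle, 3 fat cell, 3 cardiac muscle, 2 basophil and mast cell and 5 lymphocyte markers passed against control by edgeR, while DESeq2 put 1 smooth muscle and 1 cardiac muscle marker lower at 6 h. At an unadjusted p under 0.05, 2 smooth muscle, 2 fat cell and 1 cardiac muscle marker were lower at 6 h and 1 fat cell marker at 1 h. Of all 11123 entries, 2237 at 6 h and 887 at 1 h had an unadjusted p under 0.05 in either direction. DESeq2 put 572 of them lower at 6 h.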

How the data were processed

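Counts of 13 libraries were used (control 4, 1 h 4, 6 h 5). The authors made libraries by low-input amplification (SMARTer), sequenced single reads of 50 bases, ran FastQC 0.11.5, mapped reads to mm9 by gsnap with at most 10 mismatches and counted them without strand by HTSeq 0.5.4p3 over RefSeq transcripts. The deposited tables hold raw counts. The authors' tables also hold comparisons by DESeq2 1.14.1 (fold changes, standard errors, p-values), which were not used, and 30 columns named 24 h over all tables, which could not be matched to the 4 samples and were not used. Of 13212 entries, 12326 have a symbol in the files and 803 were filled in from RefSeq.

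Counts were analysed with edgeR 4.0.16 in R 4.3.3: filterByExpr (11123 entries kept), TMM, and a robust quasi-likelihood fit of all libraries by group, with p-values adjusted by Benjamini and Hochberg over all entries at 0.05 (2-sided; biological coefficient of variation 1.03). CPM are TMM-normalised, with a prior count of 2 on the log2 scale. Standard errors were derived as the absolute log2 fold change divided by the square root of the F statistic of the test. They are therefore no measure of precision separate from its p-value. With 1 to 3 counts in a group, a ratio of depth-scaled counts is given. Its exact 95% interval is from counts summed over each group and leaves out the spread between libraries. Genes were assigned strandlessly, so overlapping transcripts are not told apart.

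The genes and lists were chosen with earlier results of these data known. Named genes are the 8 genes, up to 4 of each list with the smallest p against control, and the 3 genes most alike in pattern to each changed gene, some of which are not reported here. Alternatives were scaling by upper quartile, RLE or library totals, leaving out the filter or asking for 50 counts in 4 libraries, DESeq2 1.42.0, the libraries of 2 groups only, entries of a symbol summed, a log2 fold change of at least 1, each library left out and, chosen after seeing the data, a fit without both libraries that stood apart.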

Additional observations from a re-analysis of the deposited data

Results flagged for a closer look

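In 6 of 24 sets of libraries (8 genes in 3 groups) 1 library lay far from the others of its group. Chance flags about 1 of 20 sets, but this rate does not hold where 1 count stands against libraries all at 0, as in 3 of the 6, so the number of such sets is not read against it. In 5 of these the library in question held 1 count or none. These levels, in log2 CPM, were those of Areg in control replicate 2 (-1.73, 1 count, the others at 0 counts and -2.26), Areg in graft 1 h replicate 1 (-1.62, 1 count, the others at -2.26), Ereg in control replicate 3 (-1.66, 1 count, the others at -2.26), and Btc in graft 1 h replicate 4 (-2.26, 0 counts, the others at 2.17 to 2.87). The fifth was Areg in graft 6 h replicate 5 at -2.26 with 0 counts, the others at 1.92 to 2.92. Adam17 in graft 1 h replicate 4 was at 4.08 with 158 counts, the others at 5.65 to 5.85. That library also had the highest Hbegf of its group.

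The change against control differed between 1 h and 6 h for 3 genes by the test of 6 h against 1 h. This is the same test as reported above and no separate result. Of all entries tested, 2.63% were called higher in it, and 6.49% were higher in every 6 h library than in any 1 h library. The difference was 3.66 for Hbegf (edgeR adjusted p = 0.00676), 9.31 for Ereg (adjusted p = 0.000531) and 2.18 for Errfi1 (adjusted p = 7.31e-05) on the log2 scale, in each case higher in 5 of 5 libraries at 6 h than in any at 1 h. Whatever the digit in the sample titles marks cannot be told apart from time here.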

How the results depend on the processing

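Hbegf, Ereg and Errfi1 kept their calls at 6 h against control and against 1 h under every alternative run. Hbegf and Errfi1 at 1 h and Areg at 6 h did not. Against a log2 fold change of at least 1, 0 of the 8 genes were called at 1 h (2 otherwise), and with the libraries of both groups only or without the pair of libraries that stood apart, 1 was. With 1 library left out, the genes called numbered 1 to 2 at 1 h, 3 to 4 at 6 h and 3 to 4 at 6 h against 1 h. Of all entries, 98 to 123, 575 to 752 and 228 to 325 were then called (126, 798 and 406 with all libraries). DESeq2 called 334, 1604 and 918 entries, and the test against a log2 fold change of at least 1 called 66, 334 and 78. Scaling by library totals put the median log2 fold change of all entries at -0.14, -0.46 and -0.31 (-0.04, -0.05 and 0.00 by TMM), with 453 entries higher and 604 lower at 6 h (621 and 177 by TMM) and 171 and 239 at 6 h against 1 h (293 and 113); the calls of the 8 genes were the same. Egfr at 6 h was called by DESeq2 (1.45). Signs turned on leaving out 1 library for Tgfa at 1 h (-1.04 to 2.79), Tgfa at 6 h against 1 h (-0.67 to 1.78) and Adam17 at 6 h (-0.50 to 0.13), none of them called. Areg at 1 h ran over -1.48 to 1.69, which says nothing of stability, since it is 1 count against 1 count. The causes were not tested. No paired analysis was possible because replicate numbers only name libraries. Depth limits Areg, Ereg and Btc, whose groups hold as few as 1, 1 and 49 counts.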
